A study of Macaca mulatta with 2 samples.

Results

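Collagen chain genes were followed across the cell types of the rhesus macaque trabecular meshwork, the sieve-like tissue through which aqueous humour leaves the eye. A feature was a member if its symbol was COL, a number, A and a number, and 41 of 24037 features met that rule, which used no measured value. Of the 41, 33 carried the symbol in the files, and 8 (COL6A1, COL9A3, COL13A1, COL15A1, COL20A1, COL22A1, COL23A1 and COL27A1) were named through their gene IDs from the RefSeq gene table. COL7A1, COL10A1 and COL24A1 were not among the named features and were not analysed here.

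Cells of 2 droplet libraries were compared. The glaucoma library came from meshwork labelled glaucoma, which the design text ties to monkeys that developed primary open-angle glaucoma spontaneously, and the normal library came from meshwork labelled normal, the healthy controls. The labels give neither the age nor the number of animals or eyes behind a library, so a difference between the libraries cannot be told apart from a difference between the animals. Both tissues were dissociated with collagenase, and RNA was counted from its 3′ end.

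Collagens are extracellular proteins made of 3 chains wound into a triple helix, and most types need chains from more than 1 gene. Fibrillar chains form the load-bearing fibrils of connective tissue, type IV chains form the sheet of basement membranes, type VI chains form beaded filaments beside cells, and type VIII chains form hexagonal networks such as that of Descemet's membrane. In the meshwork, collagen fibrils and elastic fibres form the core of the beams, and basement membrane lies under the cells that cover them and around the wall of Schlemm's canal.

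After removal of low-quality barcodes and doublets, 8337 cells remained in the glaucoma library, against 5385 in the normal library, with medians of 2751 and 2702 UMIs (unique molecular identifiers, each an mRNA molecule counted once) per cell. Collagen genes gave 82905 UMIs in the glaucoma library, against 55497 in the normal library, which is 27.62 and 25.58 per 10000 UMIs. The 2 libraries shared 17 cell barcodes. Scrublet called 296 doublets in the glaucoma library, against 45 in the normal library, 3.43% and 0.829% of the cells that passed the other filters. The rates expected from the numbers of cells were 6.91% and 4.34%, so doublets may remain among the kept cells. Cells were clustered without any collagen gene, and clusters were named from marker genes, so each class name means cells with those markers. Each of the 11 meshwork markers had UMIs in meshwork-like cells of both libraries. Their summed levels were 30790.0 CPM in the glaucoma library, against 34710.0 CPM in the normal library. The class joined clusters 2, 5 and 15, named on 7, 9 and 7 of these markers. Since the markers named the class, their levels are a description. CPM is a gene's UMIs per 1000000 UMIs of the class.

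Stromal, mural and glial cells and lymphatic-type endothelium-like cells held far more collagen UMIs per UMI than immune cells did. Collagens made up 0.415% of the UMIs of stromal fibroblast-like cells in the glaucoma library, against 0.410% in the normal library, and 0.357% and 0.294% of those of meshwork-like cells. Non-myelinating Schwann-like cells, the glia that wrap thin axons, gave 0.301% in the glaucoma library, against 0.293% in the normal library, and pericyte-like cells, the mural cells of small vessels, gave 0.254% and 0.220%. Myelinating Schwann-like cells gave 0.218% and 0.228%, and muscle-like cells 0.164% and 0.129%. The endothelial classes differed: lymphatic-type endothelium-like cells gave 0.313% and 0.286%, on 6348 and 253 collagen UMIs, and vascular endothelium-like cells 0.0454% and 0.0554%. Macrophage-like cells stood at 0.00924% and 0.0107%, and T or NK-like cells at 0.0119% and 0.00885%, the background level that free RNA in the droplets can set. The clearest case of that gap was COL1A2, which 81.9% of meshwork-like cells in the glaucoma library, against 79.3% in the normal library carried, against 0.639% and 0.885% of T or NK-like cells. Median depths were 5559 and 7388 UMIs in meshwork-like cells, and 1344 and 1744 UMIs in T or NK-like cells. Among cells thinned to 1000 UMIs, COL1A2 was found in 36.7% and 35.8% of meshwork-like cells and in 0.340% and 0.917% of T or NK-like cells.

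Different classes led for different chains. Of the 41 members, 29 had at least 100 UMIs over both libraries and are described by class; the other 12 had 85 or fewer. Across the 11 classes or clusters with at least 30 cells in each library, stromal fibroblast-like cells had the highest mean CPM of 9 chains (COL1A1, COL1A2, COL5A1, COL6A1, COL6A2, COL6A3, COL11A1, COL12A1 and COL25A1). Non-myelinating Schwann-like cells led for 7 (COL3A1, COL5A2, COL9A1, COL15A1, COL16A1, COL18A1 and COL28A1), and pericyte-like cells for 5 (COL4A5, COL4A6, COL5A3, COL14A1 and COL21A1). Cluster 10 led for 3 (COL4A3, COL4A4 and COL8A2). It was left unnamed: it matched 7 muscle markers best, but its leading genes (CYTL1, CCK, BMP3 and CXCL14) were shared with another class, and the 11 meshwork markers summed to 22430.0 CPM there in the glaucoma library, against 28860.0 CPM in the normal library, with the 9 muscle markers at 3270.0 and 10250.0 CPM. Lymphatic-type endothelium-like cells led for COL4A1 and COL4A2, and muscle-like, myelinating Schwann-like and meshwork-like cells for 1 each (COL13A1, COL9A2 and COL8A1). Vascular endothelium-like, macrophage-like and T or NK-like cells led for none. The leading class was the same in both libraries for 25 of the 29 chains, and changed for COL11A1, COL18A1, COL21A1 and COL25A1. Some leads were narrow. The leading mean CPM was 1.095 times the next for COL18A1, 1.06 for COL5A3, 1.11 for COL21A1 and 1.05 for COL8A2.

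**Figure D1:**
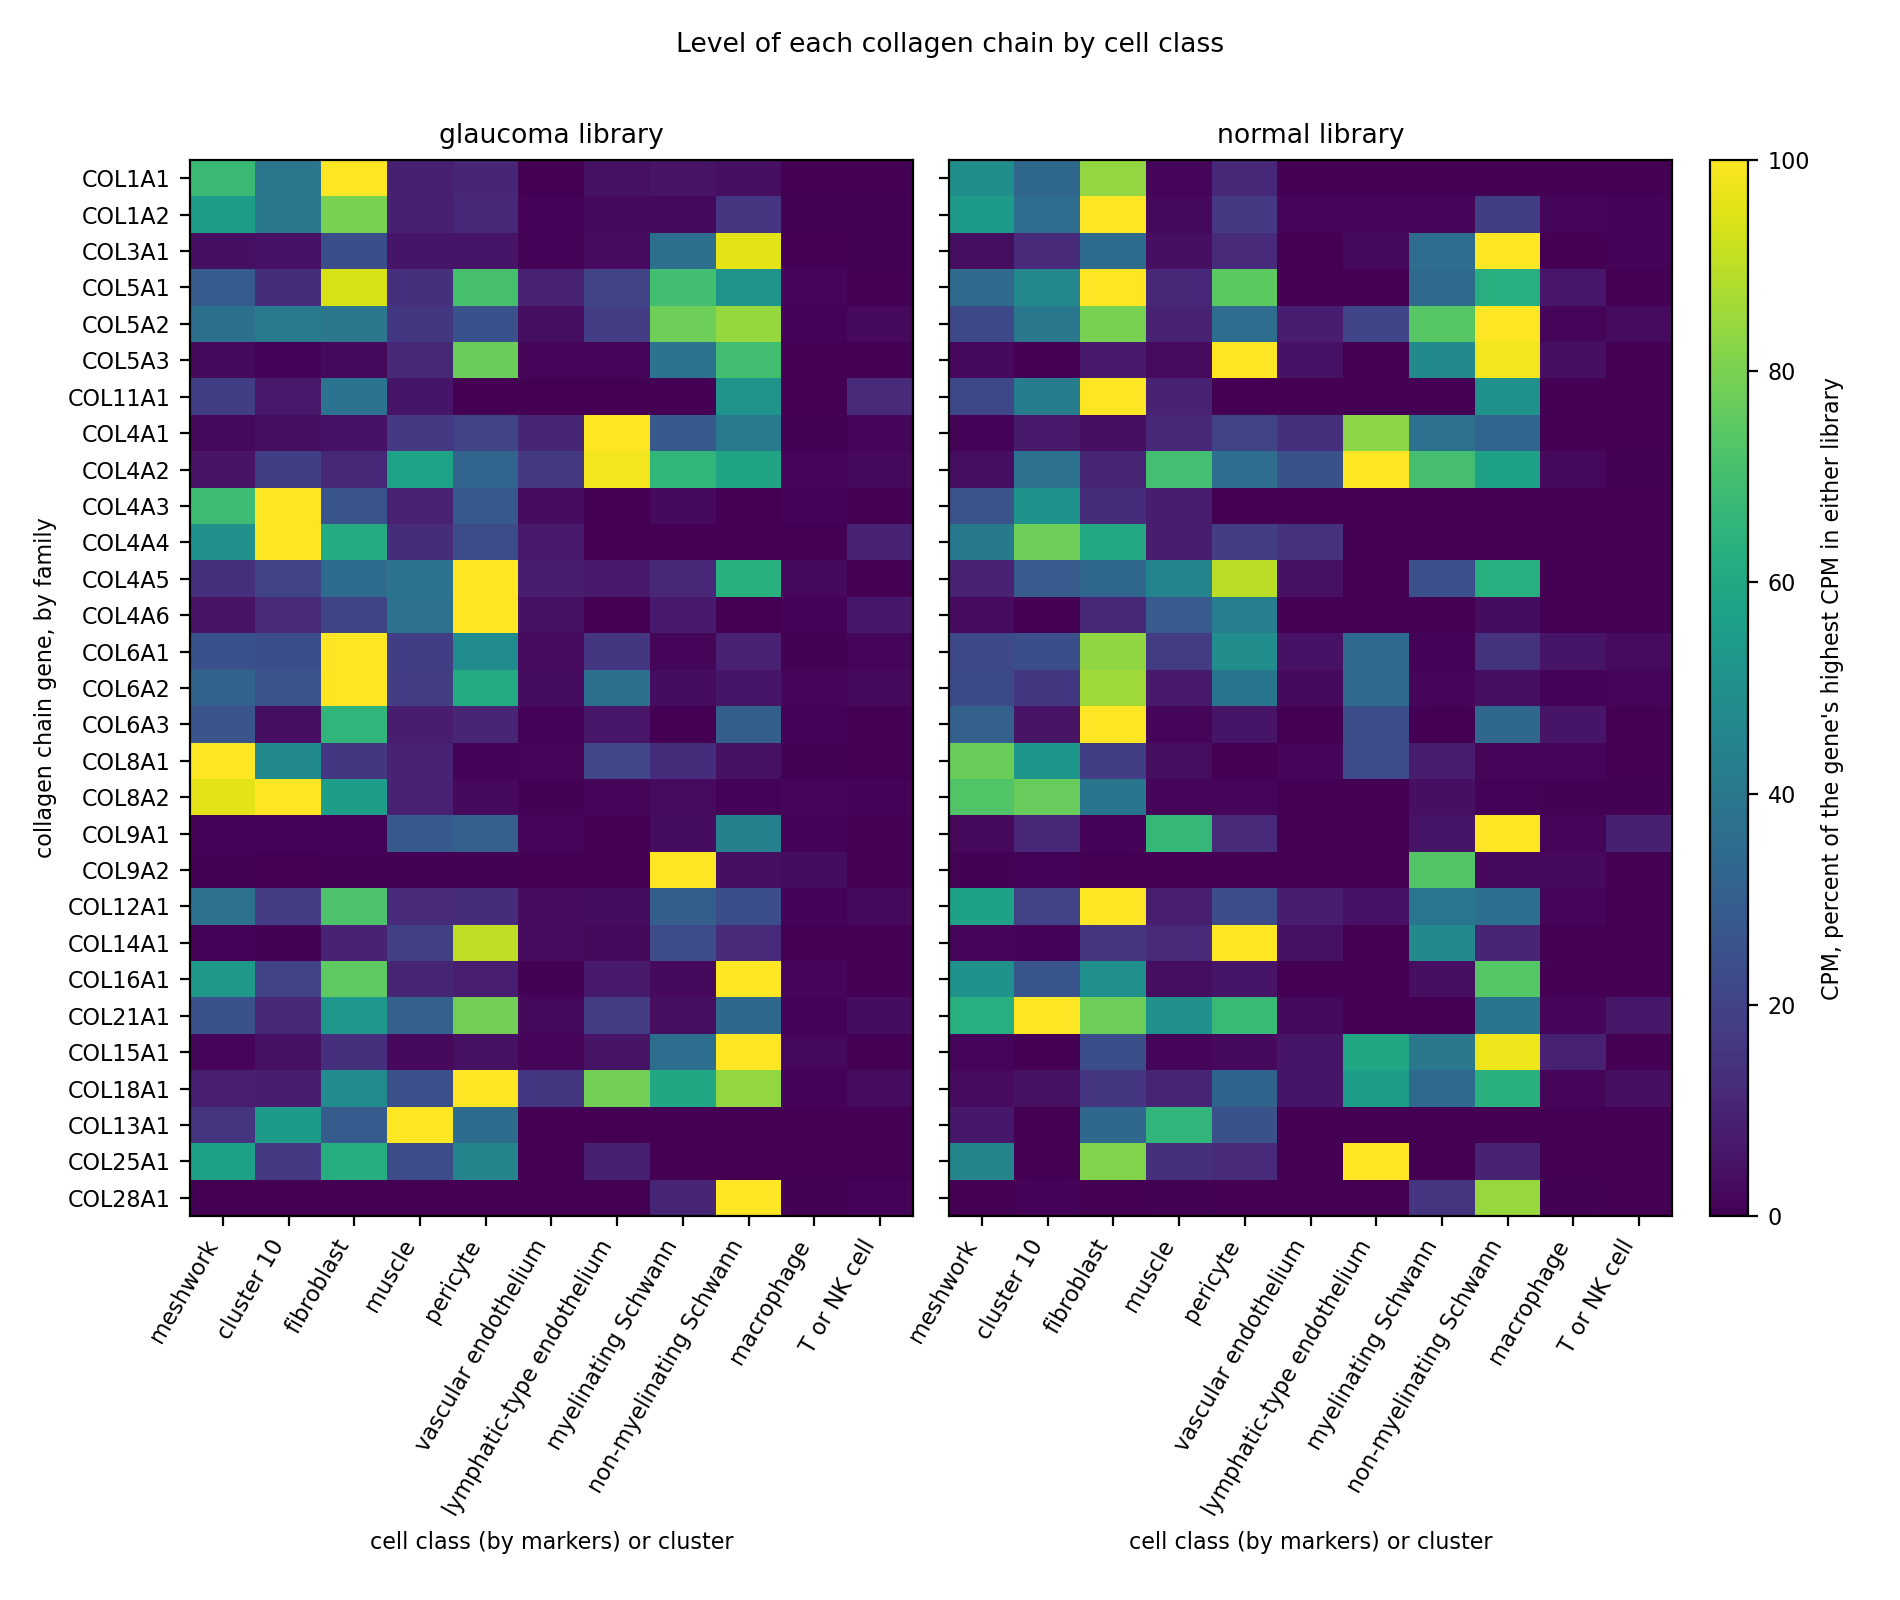
Each row is 1 of the 29 described collagen chain genes and each column a cell class or cluster, with the glaucoma library on the left and the normal library on the right; colour gives the CPM as a percent of that gene's highest CPM in either library. The bright cells fall in different columns for different families, for example COL8A1 and COL8A2 in meshwork-like cells and cluster 10, COL6A1 and COL6A2 in stromal fibroblast-like cells, and COL28A1 in non-myelinating Schwann-like cells.

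The libraries were compared class by class where a class had at least 50 cells in each. The size of a difference is the log2 ratio of CPM, glaucoma over normal, with a 95% interval that covers counting error only. A gene with at least 100 UMIs in the class over both libraries was called higher or lower where the ratio reached 2-fold and the interval left out 1. With 1 library per group there is no test, so a call describes these 2 libraries.

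In meshwork-like cells, 2 of 19 collagen genes stood higher in the glaucoma library (COL18A1 and COL4A3) and 1 stood lower (COL21A1), while 16 lay within 2-fold or had an interval that reached 1. Over all 8039 genes compared in that class, 4.12% were called higher and 5.55% lower, 9.67% together, against 15.8% of the collagen genes. The median log2 ratio of the 19 was 0.37, against -0.05 for all genes compared, and 15 of the 19 lay above 0. Meshwork-like cells came from different clusters in the 2 libraries. Cluster 2 held 75.6% of them in the glaucoma library, against 14.8% in the normal library, cluster 5 held 20.1% and 65.3%, and cluster 15 held 4.34% and 20.0%. The median was 0.08 within cluster 2 alone (16 genes), 0.43 within cluster 5 alone (16 genes) and 0.03 within cluster 15 alone (5 genes).

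In stromal fibroblast-like cells, 1 of 22 collagen genes stood higher in the glaucoma library (COL18A1) and 2 stood lower (COL5A2 and COL11A1). Over all 7511 genes compared, 2.68% were called higher and 6.36% lower, 9.04% together, against 13.6% of the collagen genes. The median of the 22 was -0.03, against -0.16 for all genes. Scaling by TMM or by the median of ratios raised every ratio in this class by 0.17 or 0.15, which put the median of the 22 above 0. Cluster 0 held 37.9% of these cells in the glaucoma library, against 64.1% in the normal library, cluster 3 held 32.9% and 28.7%, and cluster 12 held 29.1% and 2.09%.

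In muscle-like cells, 5 of 15 collagen genes stood higher in the glaucoma library (COL8A2, COL1A2, COL8A1, COL6A2 and COL18A1) and 1 lower (COL9A1). Over all 6385 genes compared, 3.02% were called higher and 3.57% lower, 6.59% together. The count of collagen genes changed without 1 small cluster. Cluster 20 held 41 muscle-like cells of the glaucoma library and 2 of the normal library, and CYTL1, CCK and CHI3L1 were among its leading genes beside MYH11, DES and ACTA2. Its median depth in the glaucoma library was 10457 UMIs, against 6328 in cluster 6 and 2476 in cluster 9. Whether its cells are doublets was not tested. Without cluster 20, 2 collagen genes stood higher (COL6A2 and COL18A1) and 1 lower (COL9A1). COL1A2, COL8A1 and COL8A2 then had log2 ratios of 0.91, 0.35 and 0.75. Cluster 6 held 39.0% of muscle-like cells in the glaucoma library, against 60.04% in the normal library, and cluster 9 held 54.9% and 39.8%. With these clusters at the same weight in both libraries COL18A1 was called higher and COL9A1 lower, and COL6A2 was at 0.96, just within 2-fold. The 11 meshwork markers summed to 3070.0 CPM in muscle-like cells of the glaucoma library and 1457.0 CPM in those of the normal library.

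Fewer chains could be compared elsewhere. In pericyte-like cells 1 of 9 was called (COL18A1, higher), against 6.96% of all genes, and in vascular endothelium-like cells 0 of 3, against 3.53%. In myelinating Schwann-like cells 1 of 7 was called (COL14A1, lower), against 5.43%, and in non-myelinating Schwann-like cells 1 of 13 (COL9A1, lower), against 8.22%. In cluster 10, which held 566 cells of the glaucoma library and 66 of the normal library, 2 of 12 were called (COL3A1 and COL4A1, both lower), against 10.4%. The 9 muscle markers summed there to 3270.0 CPM in the glaucoma library, against 10250.0 CPM in the normal library. Their part in the ratios of this cluster was not tested.

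**Figure D2:**
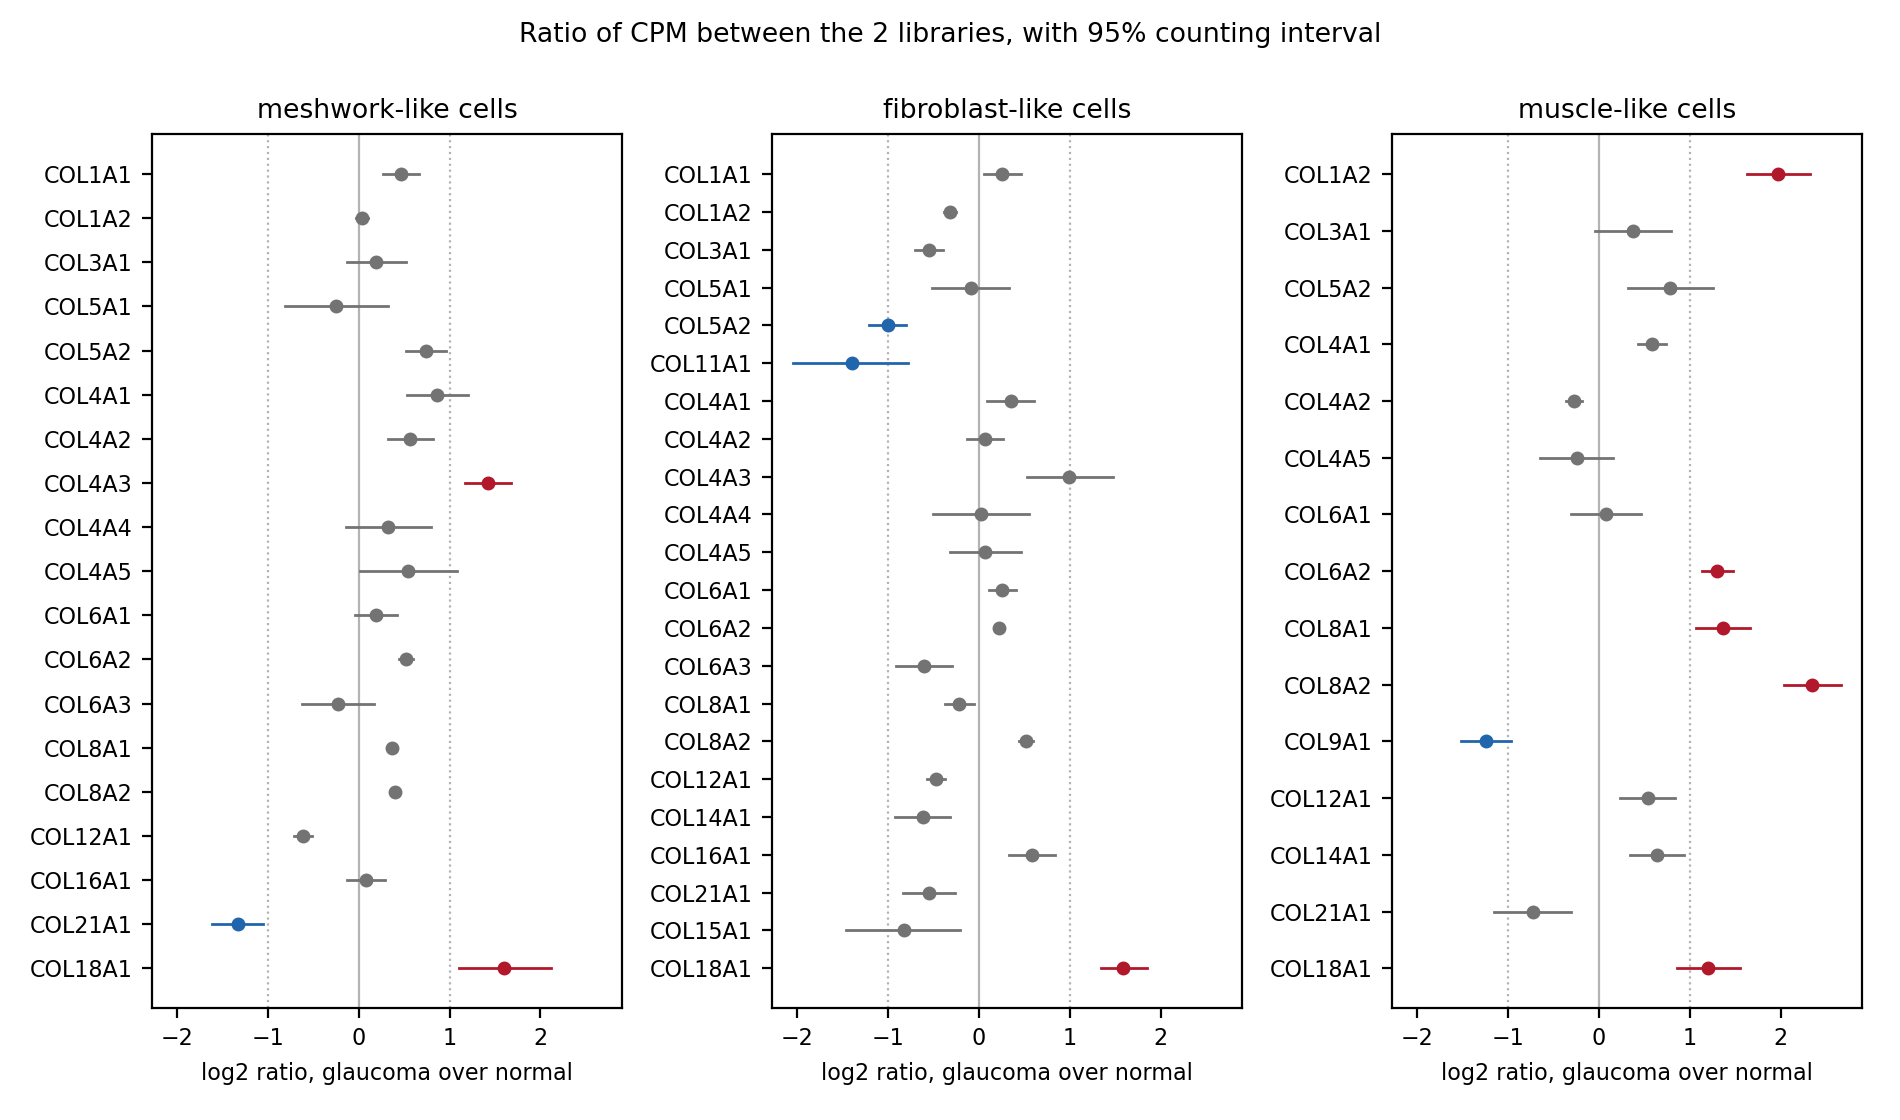
Points give the log2 ratio of CPM, glaucoma over normal, of each collagen gene with at least 100 UMIs in meshwork-like, stromal fibroblast-like and muscle-like cells, and lines give the 95% counting interval; red marks a gene called higher, blue one called lower, and dotted lines mark 2-fold. COL18A1 is the only gene in red in all 3 panels, at 1.60, 1.59 and 1.21.

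Type I chains, the main chains of thick fibrils, were made by stromal fibroblast-like and meshwork-like cells. COL1A2 stood at 713 CPM in stromal fibroblast-like cells of the glaucoma library and 891 CPM in those of the normal library, and at 498 and 485 CPM in meshwork-like cells. The log2 ratio was -0.32 (95% interval -0.39 to -0.26) in stromal fibroblast-like cells and 0.04 (-0.03 to 0.10) in meshwork-like cells, so neither reached 2-fold. COL1A1, its partner in the type I trimer, stood at 96.1 CPM in the glaucoma library, against 80.4 CPM in the normal library in stromal fibroblast-like cells and at 65.7 and 47.7 CPM in meshwork-like cells. Its ratio was above 0 in all 3 classes or clusters where it could be compared (0.23 to 0.46), none of them called. COL1A1 held 11.7% of the UMIs of both type I chains in meshwork-like cells of the glaucoma library and 8.96% in those of the normal library, and 11.9% and 8.27% in stromal fibroblast-like cells. Here and below, such shares are of counted UMIs. Whether partner genes were counted with equal efficiency was not tested, so a share is not a ratio of chains.

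COL3A1, the type III chain of soft tissue fibrils, had its highest level outside the stroma. Non-myelinating Schwann-like cells held 501 CPM in the glaucoma library, against 523 CPM in the normal library, with overlapping intervals, and myelinating Schwann-like cells held 193 and 188 CPM. Stromal fibroblast-like cells held 126 and 185 CPM, and meshwork-like cells only 21.7 and 19.0 CPM. In cluster 10 COL3A1 stood at 24.7 CPM in the glaucoma library, against 65.3 CPM in the normal library, a log2 ratio of -1.40 (-2.05 to -0.70). That ratio rests on 26 UMIs of the normal library, 19.2% of them from 1 barcode.

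The minor fibrillar chains of types V and XI, which set the width of type I fibrils, split between classes. COL5A2 stood at 64.3 CPM in stromal fibroblast-like cells of the glaucoma library and 129 CPM in those of the normal library, and its log2 ratio of -1.01 (-1.21 to -0.80) was just past 2-fold. With every cluster that had at least 20 cells in each library at the same weight in both (hereafter the same cluster weights) the value was -0.89, and scaling by TMM or by the median of ratios also put it within 2-fold. In meshwork-like cells COL5A2 lay the other way, at 60.2 CPM in the glaucoma library, against 36.1 CPM in the normal library, with a ratio of 0.74 that was not called and was 0.33 with the same cluster weights. COL11A1 had 30 UMIs in stromal fibroblast-like cells of the glaucoma library and 88 in those of the normal library, a log2 ratio of -1.39 (-2.04 to -0.78), or -0.95 with the same cluster weights. COL5A1 was highest in stromal fibroblast-like cells, at 20.5 and 21.8 CPM. COL5A3 belonged to other cells, with 51.5 and 66.4 CPM in pericyte-like cells, 46.2 and 65.2 CPM in non-myelinating Schwann-like cells and 1.56 and 1.57 CPM in meshwork-like cells.

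COL4A1 and COL4A2, the chains of nearly every basement membrane, were highest in lymphatic-type endothelium-like cells. This class was named on 3 markers, CCL21, MMRN1 and FLT4, from a set shared by lymphatic vessels and Schlemm's canal. Its leading genes included CCL21 and MMRN1, beside PECAM1 and EGFL7 of the vascular endothelium set. In this class COL4A1 stood at 1317 CPM in the glaucoma library, against 1086 CPM in the normal library, and COL4A2 at 835 and 849 CPM. The class had 552 cells in the glaucoma library, against 32 in the normal library, too few for a comparison. It held 49.2% of all COL4A1 UMIs of the glaucoma library and 4.38% of those of the normal library. Over all kept cells COL4A1 had a log2 ratio of 0.84 (0.76 to 0.91). The ratio was 0.24 over cluster 10 and the classes with at least 50 cells in each library, each at the same weight in both. That value leaves lymphatic-type endothelium-like cells out. Vascular endothelium-like cells held 141 CPM of COL4A1 in the glaucoma library, against 176 CPM in the normal library, where 1 barcode gave 17.6% of the gene's UMIs. Non-myelinating Schwann-like cells came second for COL4A1, at 550 and 430 CPM, and myelinating Schwann-like cells for COL4A2, at 560 and 598 CPM. Pericyte-like cells held 270 and 271 CPM of COL4A1. Muscle-like cells held 220 and 147 CPM of COL4A1 and 494 and 597 CPM of COL4A2. In cluster 10 COL4A1 stood at 47.0 and 95.4 CPM, a log2 ratio of -1.02 (-1.54 to -0.47). That ratio rests on 38 UMIs of the normal library, 10.5% of them from 1 barcode.

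COL4A3 and COL4A4, which with COL4A5 form the trimer of specialised basement membranes such as those of the kidney glomerulus and the lens capsule, were highest in cluster 10, with meshwork-like cells next for COL4A3 and stromal fibroblast-like cells next for COL4A4. Meshwork-like cells held 55.2% of the COL4A3 UMIs of the glaucoma library and 58.7% of those of the normal library. COL4A3 had 575 UMIs in meshwork-like cells of the glaucoma library and 168 in those of the normal library, or 64.2 and 23.9 CPM. The log2 ratio was 1.42 (1.17 to 1.68). The call did not hold within clusters: the ratio was 0.88 in cluster 2, 0.56 in cluster 5 and 0.74 with the same cluster weights. In cluster 10 COL4A3 stood at 93.1 CPM in the glaucoma library, against 47.7 CPM in the normal library, a ratio of 0.96 that missed 2-fold. It rests on 19 UMIs of the normal library, 21.05% of them from 1 barcode. In stromal fibroblast-like cells COL4A3 stood at 24.3 and 12.2 CPM, a ratio of 0.99 that missed 2-fold too. That ratio passed 2-fold under TMM and median-of-ratios scaling and was 0.85 with the same cluster weights. It was 0.31 (-0.49 to 1.08) in cluster 0 and -0.43 (-1.60 to 0.69) in cluster 3. Cluster 12, with 472 and 32 cells, gave 66 of the 107 UMIs of the glaucoma library and 0 of the 60 of the normal library. Both Schwann-like classes together had 1 UMI of COL4A3, and lymphatic-type endothelium-like cells had none. COL4A4 stood at 13.9 and 13.6 CPM in stromal fibroblast-like cells and at 11.4 and 9.12 CPM in meshwork-like cells, where it had a ratio of 0.32 with an interval that reached below 0 (-0.14 to 0.80). COL4A5 and COL4A6 were highest in pericyte-like cells, COL4A5 at 69.5 and 62.3 CPM and COL4A6 at 34.8 and 14.9 CPM.

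Type VI chains, the beaded filaments that tie cells to the fibrils, followed the stromal cells. COL6A2 stood at 1260.0 CPM in stromal fibroblast-like cells of the glaucoma library and 1078 CPM in those of the normal library, at 774 and 489 CPM in pericyte-like cells and at 403 and 282 CPM in meshwork-like cells. Its ratio lay above 0 in all 7 classes or clusters where it could be compared, from 0.23 to 1.30, and past 2-fold in muscle-like cells, where it stood at 231 and 93.5 CPM. That call ended with clusters 6 and 9 at equal weights in both libraries (0.96). In meshwork-like cells the ratio was 0.52 over the class and larger within each cluster, at 0.75 in cluster 2, 1.05 in cluster 5 and 0.66 in cluster 15. COL6A1, the neighbouring gene, whose chain joins that of COL6A2 in the trimer, lay closer to 0. Its ratios ran from -0.01 to 0.26 over 5 classes or clusters. COL6A1 held 11.8% of the UMIs of COL6A1 and COL6A2 in muscle-like cells of the glaucoma library and 23.8% in those of the normal library, and 9.49% and 14.3% in pericyte-like cells. In stromal fibroblast-like cells the shares were 11.6% and 11.4%. COL6A3, the largest type VI chain, stood at 31.4 and 47.6 CPM in stromal fibroblast-like cells, a ratio of -0.60 (-0.92 to -0.29).

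COL8A1 and COL8A2, the chains of the hexagonal networks of Descemet's membrane, were at their highest in meshwork-like cells and cluster 10. COL8A2 had 11063 UMIs in meshwork-like cells of the glaucoma library and 6573 in those of the normal library, or 1236 and 937 CPM, and 1287 and 989 CPM in cluster 10. Stromal fibroblast-like cells held 715 and 499 CPM. COL8A1 stood at 779 and 604 CPM in meshwork-like cells, at 370 and 409 CPM in cluster 10 and at 125 and 145 CPM in stromal fibroblast-like cells. T or NK-like cells had 13.2 and 9.32 CPM of COL8A2 and no COL8A1 UMI. Meshwork-like cells held 69.6% of the COL8A1 UMIs of the glaucoma library and 77.5% of those of the normal library. Their log2 ratios in meshwork-like cells were 0.37 for COL8A1 and 0.40 for COL8A2, both above 0 and under 2-fold over the class. For COL8A1 the direction turned within both large clusters, with -0.36 (-0.46 to -0.27) in cluster 2, -0.36 (-0.49 to -0.23) in cluster 5 and -0.34 with the same cluster weights, and it was 0.03 (-0.26 to 0.32) in cluster 15. COL8A2 was at 0.18 in cluster 2, 0.17 in cluster 5 and 0.06 in cluster 15.

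**Figure D3:**
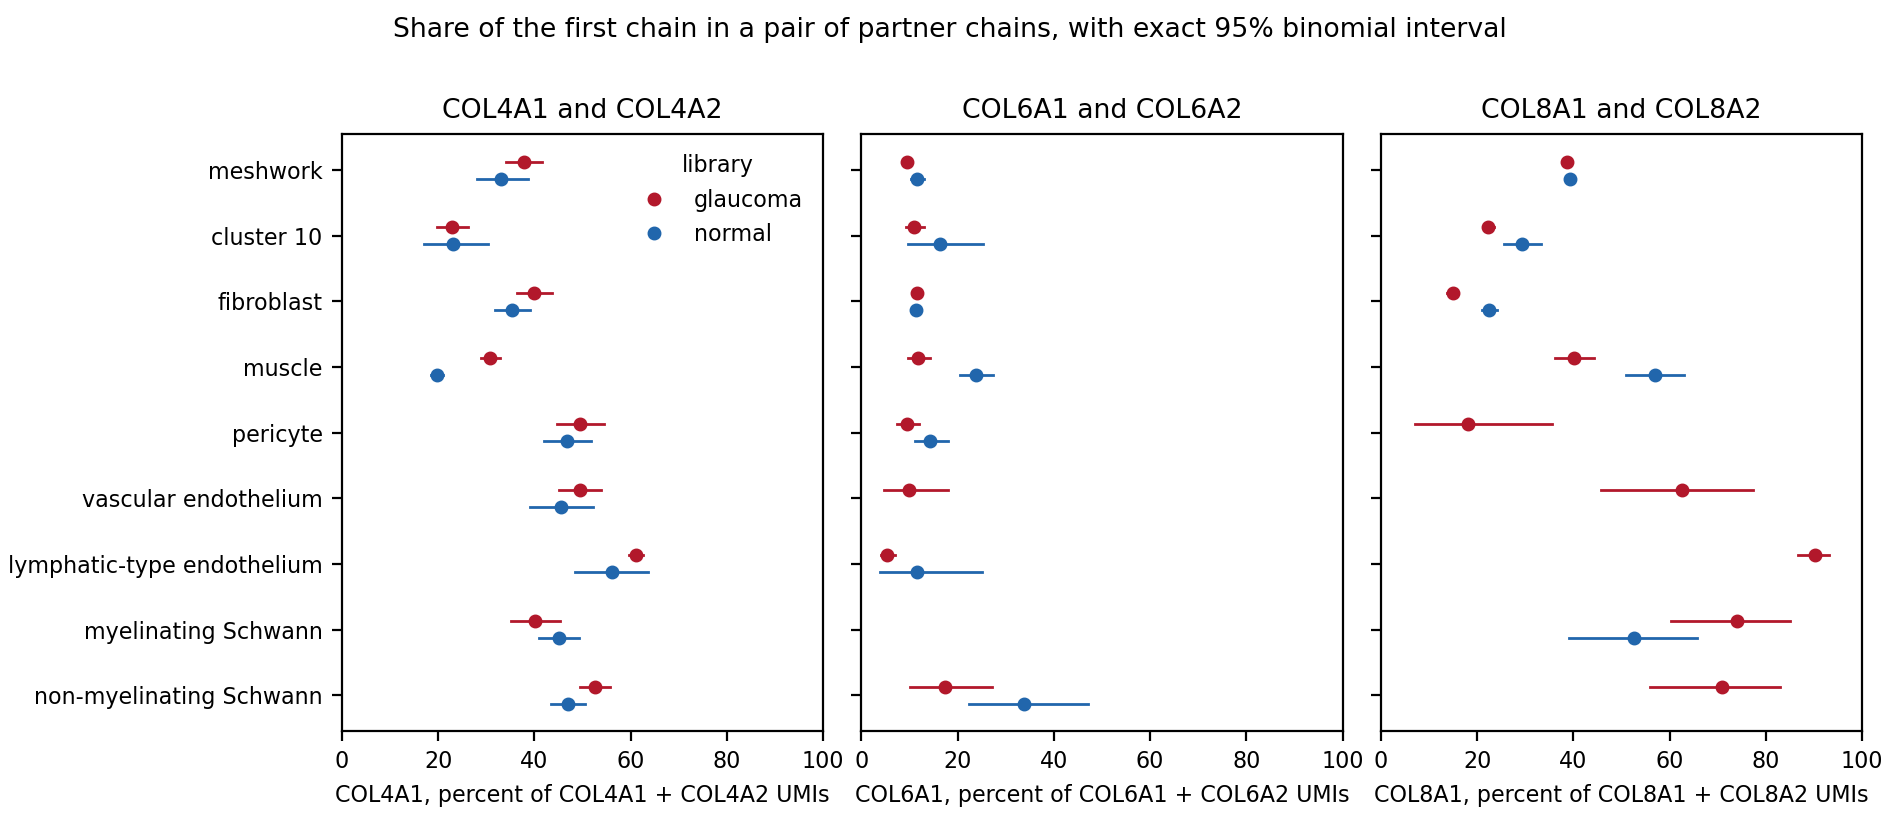
Points give the share of the first chain among the UMIs of a pair of partner chains, in percent, for each class or cluster with at least 30 UMIs of the pair, with the exact 95% binomial interval as a line and the glaucoma library in red above the normal library in blue. COL4A1 takes 61.2% of its pair in lymphatic-type endothelium-like cells of the glaucoma library and 30.8% in muscle-like cells, where the normal library shows 19.7%. COL8A1 takes 38.7% and 39.2% in meshwork-like cells. Muscle-like and meshwork-like cells each pool clusters whose shares differ and whose weights differ between the libraries.

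Most partner chains varied together across cell types, while the share of each partner differed between classes. Over 19 clusters, each a sum over both libraries, the Pearson correlation of log2(CPM + 10) was 0.95 for COL1A1 with COL1A2, 0.93 for COL4A1 with COL4A2, 0.95 for COL6A1 with COL6A2, 0.90 for COL4A3 with COL4A4 and 0.85 for COL8A1 with COL8A2. These clusters share libraries and depth, so the values are a description. COL9A1 and COL9A2 gave 0.04. The share of COL4A1 in its pair differed by class: 61.2% (59.7 to 62.7) in lymphatic-type endothelium-like cells of the glaucoma library, 49.5% (44.7 to 54.4) in pericyte-like cells and 30.8% (28.9 to 32.8) in muscle-like cells. The normal library gave 56.1%, 46.8% and 19.7% in the same order. The muscle-like share pools clusters that differ. In muscle cluster 6, COL4A1 and COL4A2 had 163 and 882 UMIs in the glaucoma library, against 349 and 2467 in the normal library. In muscle cluster 9 they had 470 and 453, against 403 and 593. The COL8A1 share was 38.7% and 39.2% in meshwork-like cells and 14.9% and 22.5% in stromal fibroblast-like cells. In lymphatic-type endothelium-like cells of the glaucoma library it was 90.3%. In meshwork cluster 2, COL8A1 and COL8A2 had 6216 and 9285 UMIs in the glaucoma library, against 1009 and 1031 in the normal library. In cluster 5 they had 612 and 1507, against 2886 and 4911. The COL8A1 share was thus lower in the glaucoma library in both clusters. In cluster 15, with 145 and 271, against 343 and 631, it was nearly equal. The binomial intervals take UMIs as independent and cover counting error only.

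The fibril-associated chains, which sit on the surface of fibrils, were divided between the stroma, mural cells and nerve. COL12A1, which sits on type I fibrils, stood at 324 CPM in stromal fibroblast-like cells of the glaucoma library and 450 CPM in those of the normal library, and at 168 and 257 CPM in meshwork-like cells. Its ratio lay below 0 in 6 of 7 classes or clusters, none of them called, and above 0 in muscle-like cells (0.53). The ratio of -0.62 in meshwork-like cells was -0.08 in cluster 2, 0.03 in cluster 5 and -0.25 in cluster 15. The 9 stromal fibroblast markers summed to 14190.0 CPM in meshwork-like cells of the glaucoma library and 21090.0 CPM in those of the normal library, and their part in the result was not tested.

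COL21A1, a small chain of the same group, had 157 UMIs in meshwork-like cells of the glaucoma library and 310 in those of the normal library, or 17.5 and 44.2 CPM, a log2 ratio of -1.33 (-1.62 to -1.05). The clusters differed: the ratio was -2.39 in cluster 2 and 0.10 (-0.31 to 0.50) in cluster 5. With the same cluster weights it was -0.92. Its ratio was also below 0 in stromal fibroblast-like (-0.55) and muscle-like cells (-0.73). Pericyte-like cells stood at 55.35 and 47.4 CPM of COL21A1, on 43 and 35 UMIs. Cluster 10 stood at 8.15 and 70.3 CPM, on 26 and 28 UMIs. COL14A1 was highest in pericyte-like cells, at 288 CPM in the glaucoma library, against 318 CPM in the normal library with overlapping intervals. These cells held 224 of its 767 UMIs in the glaucoma library and 235 of 850 in the normal library. Cluster 9 of the muscle-like cells stood at 185 and 150 CPM of COL14A1. In myelinating Schwann-like cells it stood at 73.5 and 150.0 CPM, a ratio of -1.03 (-1.69 to -0.40) on 29 and 80 UMIs that was within 2-fold under TMM and median-of-ratios scaling. COL16A1 was highest in non-myelinating Schwann-like cells, at 93.4 and 68.6 CPM, and its ratio there was 0.44 (-0.04 to 0.94).

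Type IX chains, known as cartilage collagens, were highest in glial and muscle-like cells. COL9A1 stood at 69.8 CPM in non-myelinating Schwann-like cells of the glaucoma library and 160 CPM in those of the normal library, and at 45.1 and 107 CPM in muscle-like cells. It was called lower in both, with log2 ratios of -1.20 (-1.64 to -0.77) and -1.24 (-1.52 to -0.97). In muscle-like cells the direction was the same in both large clusters, at -1.94 in cluster 6 and -1.06 in cluster 9. Pericyte-like cells lay the other way, with 38 and 14 UMIs, too few for a call. Hemoglobin and other erythroid markers (5 genes) summed to 2077 CPM in non-myelinating Schwann-like cells of the glaucoma library and 340 CPM in those of the normal library, and their part in the result was not tested. Myelinating Schwann-like cells held 62.1% of the COL9A2 UMIs of the glaucoma library and 79.8% of those of the normal library, at 254 and 186 CPM, against 10.3 and 6.86 CPM in non-myelinating Schwann-like cells.

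Among the multiplexins, chains of basement membrane zones whose tail pieces include endostatin, COL18A1 was called in 4 of the 5 classes where it could be compared, more than any other collagen gene. It had 166 UMIs in meshwork-like cells of the glaucoma library and 43 in those of the normal library, or 18.5 and 6.13 CPM. Stromal fibroblast-like cells held 108 and 35.8 CPM, pericyte-like cells 224 and 71.8 CPM and muscle-like cells 54.3 and 23.6 CPM. In these classes the intervals of the libraries did not overlap. The log2 ratio was 1.60 (1.11 to 2.12) in meshwork-like, 1.59 (1.34 to 1.85) in stromal fibroblast-like, 1.64 (1.19 to 2.11) in pericyte-like and 1.21 (0.86 to 1.56) in muscle-like cells. Non-myelinating Schwann-like cells, with 188 CPM in the glaucoma library, against 142 CPM in the normal library, gave a ratio of 0.41 (0.07 to 0.75).

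The higher COL18A1 level was seen inside clusters too. In meshwork-like cells the ratio was 1.36 in cluster 2 (0.09 to 3.02), on 102 and 5 UMIs, and 2.61 in cluster 5, on 63 and 38 UMIs. In stromal fibroblast-like cells it was 1.20 in cluster 0 and 2.31 in cluster 3, and in muscle-like cells 1.08 in cluster 6 and 1.06 in cluster 9. With the same cluster weights it was 2.15 in meshwork-like, 1.73 in stromal fibroblast-like and 1.07 in muscle-like cells. Among T or NK-like cells the level was 6.62 CPM in the glaucoma library, against 9.32 CPM in the normal library, on 3 and 2 UMIs, so the meshwork level of the normal library lay at this background. In pericyte-like cells 25.8% of the glaucoma library and 14.9% of the normal library had a COL18A1 UMI, against 0.958% and 1.77% of T or NK-like cells. Median depths were 1433 and 2193 UMIs in pericyte-like cells. Among cells thinned to 1000 UMIs the shares in pericyte-like cells were 19.8% and 7.83%. COL15A1, the other multiplexin, was highest in non-myelinating Schwann-like cells, at 56.5 and 54.9 CPM with overlapping intervals, and stood at 7.72 and 13.6 CPM in stromal fibroblast-like cells.

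**Figure D4:**
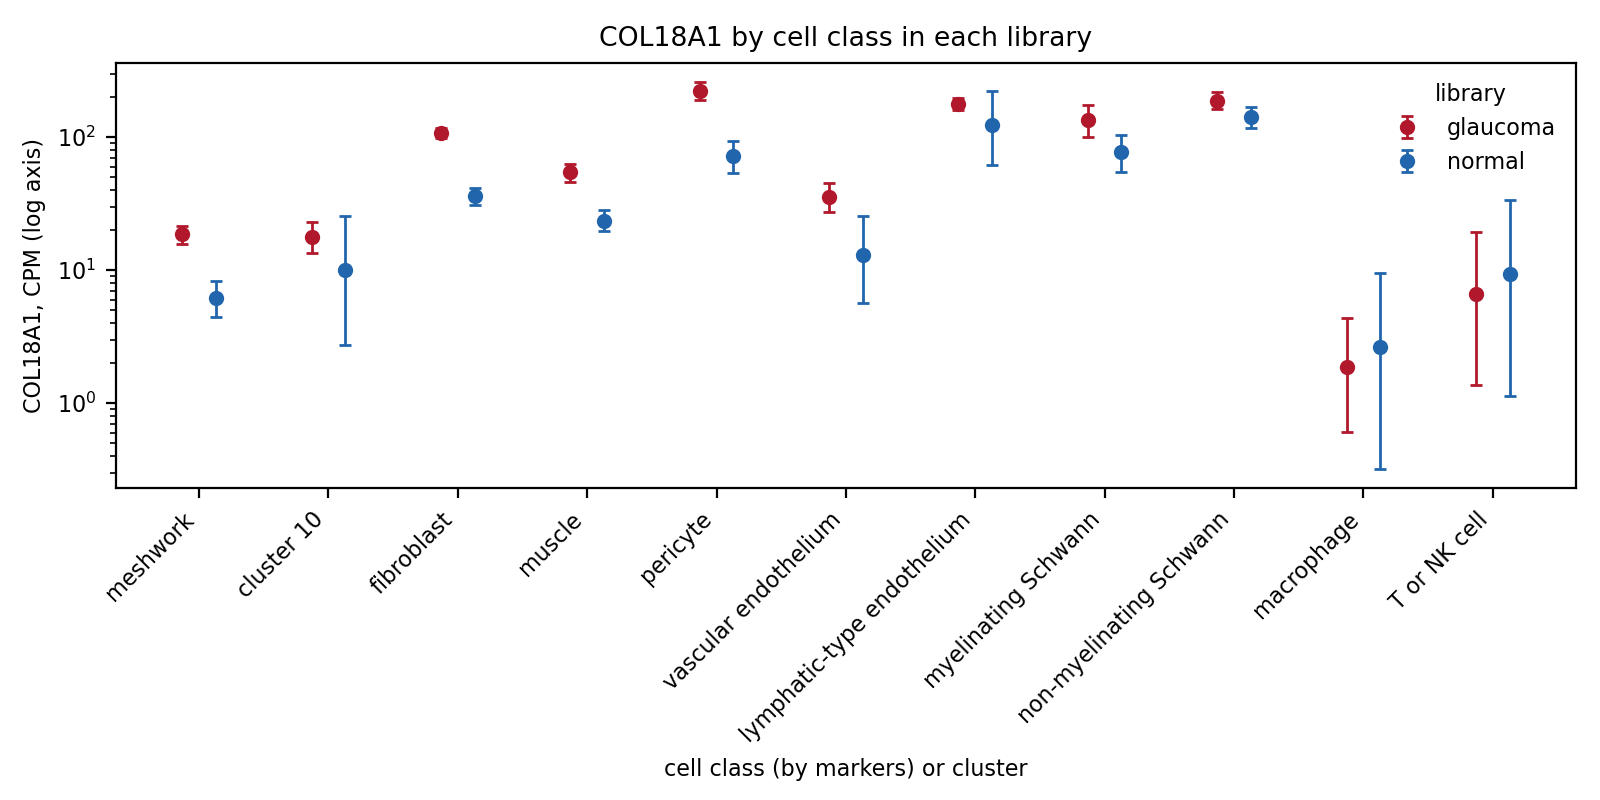
Points give the COL18A1 level in CPM on a log axis in each class or cluster, with the exact 95% Poisson interval of the UMI count as a bar and the glaucoma library in red left of the normal library in blue. The red points lie above the blue ones in meshwork-like, stromal fibroblast-like, muscle-like and pericyte-like cells, where the intervals do not overlap, while macrophage-like and T or NK-like cells sit near the bottom in both libraries.

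**Figure D5:**
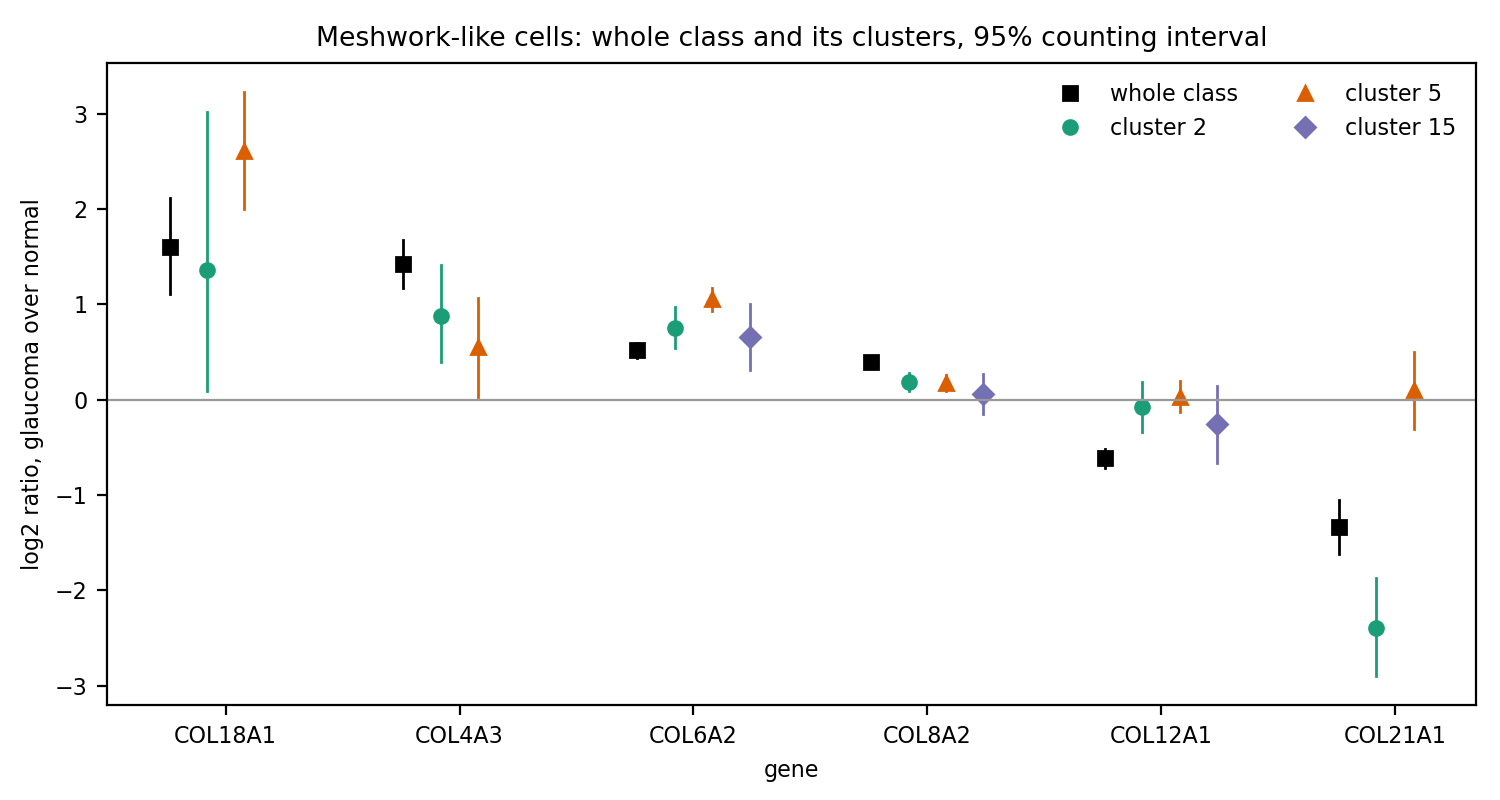
Points give the log2 ratio of CPM, glaucoma over normal, of 6 collagen genes in meshwork-like cells as a whole (black) and in the clusters of that class with at least 30 UMIs of the gene, with 95% counting intervals. COL18A1 and COL6A2 lie above 0 in every cluster shown, COL12A1 is at -0.62 over the class but near 0 in clusters 2 and 5, and COL21A1 is at -2.39 in cluster 2 and 0.10 in cluster 5.

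Non-myelinating Schwann-like cells held 89.5% of the COL28A1 UMIs of the glaucoma library and 86.3% of those of the normal library. COL28A1, a chain reported around Schwann cells in mice, stood at 272 CPM in non-myelinating Schwann-like cells of the glaucoma library and 230 CPM in those of the normal library, and at 27.9 and 41.2 CPM in myelinating Schwann-like cells. Its log2 ratio in non-myelinating Schwann-like cells was 0.24 (-0.03 to 0.51), and the direction turned to -1.19 (-1.96 to -0.49) when only cells with at least 1000 genes and under 10% mitochondrial UMIs were kept. COL13A1, a membrane-spanning chain of the neuromuscular junction, was highest in muscle-like cells at 10.9 and 7.21 CPM. Most of its UMIs there lay in cluster 9, led by RERGL, at 32.1 and 22.25 CPM on 31 and 29 UMIs. COL25A1, a membrane-spanning chain needed for motor nerves to reach muscle in mice, was low in every class, at 7.04 and 9.16 CPM in stromal fibroblast-like and 6.48 and 5.13 CPM in meshwork-like cells.

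Of the 12 members under 100 UMIs, COL19A1 differed most between the libraries, with 76 UMIs in the glaucoma library, against 8 in the normal library, a log2 ratio over all kept cells of 2.78 (1.73 to 4.04). The ratio was 2.18 over cluster 10 and the classes with at least 50 cells in each library, each at the same weight in both. COL19A1 was highest in cluster 10, which held 566 and 66 cells, and the part of that cluster in the ratio over all kept cells was not tested. COL20A1 had 61 and 24 UMIs and was highest in non-myelinating Schwann-like cells. COL27A1 had 37 and 27 UMIs, COL11A2 23 and 17, and COL26A1 14 and 4. The other 7 (COL2A1, COL6A5, COL6A6, COL9A3, COL17A1, COL22A1 and COL23A1) had 8 or fewer over both libraries, including COL2A1, the cartilage chain, with 1 UMI in each, and COL17A1, the chain of epithelial hemidesmosomes, with 2 in each.

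The enzymes, receptors and binding proteins that handle collagen were compared from lists, and the genes named outside meshwork-like cells were chosen after their values were seen. In meshwork-like cells their ratios are given over the whole class only. The clusters of that class had different weights in the libraries, and the part of this in the list calls was not tested. Over all genes compared, 9.67% were called in meshwork-like cells, 9.04% in stromal fibroblast-like cells and 6.59% in muscle-like cells. Of 22 genes for chain modification and folding, 18 could be compared in meshwork-like cells. P4HA2, a prolyl hydroxylase subunit, stood higher, at 25.1 CPM in the glaucoma library, against 6.98 CPM in the normal library (log2 ratio 1.85, 1.40 to 2.32), and none stood lower. Their median was -0.14, against -0.05 for all genes. In stromal fibroblast-like cells none of 17 was called, and in muscle-like cells 2 of 15 stood lower (P4HA1 and TMEM38B), where the call of TMEM38B ended under TMM scaling and without cluster 20. Of 13 genes for procollagen cleavage and cross-linking, 3 could be compared in meshwork-like cells, and ADAMTS3, a procollagen N-proteinase, stood lower at 3.35 and 12.1 CPM (-1.85, -2.51 to -1.24). ADAMTS3 was lower in stromal fibroblast-like cells too (-1.50), as was PCOLCE2 (-1.38), 2 of the 4 genes compared there.

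Of 9 collagen receptors, 6 could be compared in meshwork-like cells, and ITGA2, an integrin subunit that binds collagen, stood lower at 4.36 and 11.7 CPM (-1.42, -2.01 to -0.86). DDR2, a receptor tyrosine kinase for fibrillar collagen, was called lower in stromal fibroblast-like (-1.10), pericyte-like (-1.38) and non-myelinating Schwann-like cells (-1.38) and had ratios of -0.75 in meshwork-like and -0.74 in muscle-like cells. The DDR2 ratio of stromal fibroblast-like cells was -0.93 under TMM and -0.95 under median-of-ratios scaling, no longer called. Of 10 fibril-binding proteoglycans and partners, 8 could be compared in meshwork-like cells. ASPN stood higher there, at 21.3 and 4.13 CPM (2.37, 1.80 to 2.98), with a median of -0.24 over the 8. In pericyte-like cells ASPN was called lower, at 48.9 and 101.6 CPM (-1.05, -1.66 to -0.47). That call ended under TMM (-0.985) and median-of-ratios scaling (-0.981). LUM (-1.11) and OGN (-1.05) stood lower in stromal fibroblast-like cells, 2 of 9, but neither was called under TMM (-0.94 and -0.88) or median-of-ratios scaling (-0.96 and -0.90). In muscle-like cells DCN (2.38) and BGN (1.06) stood higher, 2 of 6, beside summed meshwork markers of 3070.0 and 1457.0 CPM, whose part in the result was not tested. Without cluster 20, DCN was at 1.66 (1.37 to 1.95) and still called, and BGN was at 0.69 and not called.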

How the data were processed

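The values deposited by the authors are counts: whole-number UMI counts per gene and cell barcode from a droplet 3′ assay, 1 matrix for each of 2 libraries, without normalization. The matrix files name Cell Ranger 6.0.0, per the file headers, while the submitters' processing notes name Cell Ranger 4.0 and Seurat 3.0; the genome build is not given in the sources used here. Total counts were 38765808 UMIs in 10624 barcodes of the glaucoma library and 25042621 UMIs in 7028 barcodes of the normal library. Symbols came from the files for 15580 features and from the RefSeq table for 873; 7584 had none.

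Cells with at least 500 genes and under 20% mitochondrial UMIs (13 features) were kept, and Scrublet doublets were removed (scanpy 1.11.5), which left 78.5% of the barcodes of the glaucoma library and 76.6% of those of the normal library. Both libraries were clustered together with Leiden (leidenalg 0.10.2) on 2000 variable genes without collagens, 30 components, 15 neighbours and resolution 1.0, into 23 clusters. A cluster was named where at least 3 markers of 1 class were 2-fold higher and no other class held more of its 10 leading genes. A cluster that matched vascular endothelium best was named lymphatic-type endothelium where at least 3 lymphatic-type markers were 2-fold higher. A second pass, which left clusters such as cluster 10 unnamed because their leading genes were shared with another class, was settled after the clusters had been seen.

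UMIs were summed per class and library and given as CPM, with exact Poisson intervals. Ratios have a conditional binomial 95% interval, tested on simulated counts; calls need 2-fold, an interval without 1 and 100 UMIs. Every member is accounted for, and levels by class are given from 100 UMIs. Other genes come from lists, naming at most the 3 largest called ratios per list in meshwork-like cells. Members and lists were chosen with earlier results of these data known. No p-value is given, since each group is 1 library. Alternatives covered filters, doublets, clustering, depth, scaling (edgeR 4.0.16 TMM factors), cluster weights, count minimums, single barcodes and a background subtraction, in which the gene's UMIs per T or NK-like cell were taken off and the class total was left as it was.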

Additional observations from a re-analysis of the deposited data

How the results depend on the processing

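In meshwork-like cells the main settings called 2 collagen genes higher and 1 lower. The number called higher was 4 with collagen genes kept for clustering, 5 with the libraries clustered separately, 1 with the same cluster weights and 0 with cells thinned to 1000 UMIs, where fewer genes reach 100 UMIs. The number called lower was 2 with collagen genes kept for clustering and 0 both with the same cluster weights and after thinning. Of the alternatives chosen after seeing the data, cluster 2 alone gave 1 higher, cluster 5 alone 3 higher (COL4A1, COL6A2 and COL18A1) and 0 lower, and cluster 15 alone 0 higher and 0 lower; the median log2 ratio of collagen genes was 0.075 in cluster 2, 0.426 in cluster 5 and 0.034 in cluster 15, against 0.367 over the class. COL21A1 reversed to 0.10 in cluster 5 alone. In stromal fibroblast-like cells, 2 were called higher and 1 lower under TMM factors and under median-of-ratios factors. There the number called lower was 1 with doublets kept and after thinning, and 0 with the stricter cell filter, with collagen genes kept for clustering and with the same cluster weights. COL28A1 in non-myelinating Schwann-like cells, not called at first, reversed to -1.19 under the stricter filter of at least 1000 genes and under 10% mitochondrial UMIs. The cause of these shifts was not tested, other than the lower counts after thinning. Of single genes called at first, COL4A3, COL18A1 and COL21A1 in meshwork-like cells, COL11A1 in stromal fibroblast-like cells and COL9A1 in non-myelinating Schwann-like cells were followed through every setting. All 5 stayed called the same way with doublets kept, both scalings, lower count minimums, the top barcode left out and the T or NK-like level subtracted. With the same cluster weights 3 of the 4 that could be compared were no longer called, and after thinning none reached the minimum. COL5A2 in stromal fibroblast-like cells was not called under either scaling. With the libraries clustered separately, stromal fibroblast-like cells of the glaucoma library got no name and that class gave no value.

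No paired analysis was possible because each group is 1 library. The limits are those of 1 library per group: animal, eye, dissection and disease cannot be told apart, and intervals cover counting error only. Chains with under 100 UMIs in a class were not comparable at this depth.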
